A study of Mus musculus with 4 samples.

Results

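Amino acid transporters and the nucleobase carrier Slc43a3 were followed in libraries labelled as liver. They came from mice that received dietary conjugated linoleic acid (CLA), the PPARα antagonist GW6471, both or neither. The genes were chosen by symbol, and the choice was made with their FPKM in these same libraries already known, so the values below describe them and no difference was tested. All 10 of the 10 genes were listed among the 15500 genes of the expression table, and 7 of them had a mean level of at least 1 FPKM over the 4 libraries. FPKM counts fragments for each kilobase of a transcript and is scaled by the fragments mapped in the library, so levels of different genes can be compared per length.

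Each condition had 1 library, labelled as liver, from male Kunming mice, an outbred stock. The mice arrived at 5 weeks of age, were acclimated for 1 week on chow and then received the diets for 28 days. Vehicle mice received chow with 1.5% (w/w) linoleic acid, with vehicle injections where appropriate, and CLA mice received chow with 1.5% (w/w) CLA, given as an equal mixture of the c9t11 and t10c12 isomers. GW6471 mice received the linoleic acid diet and a daily intraperitoneal injection of GW6471 at 20 mg/kg, and CLA+GW6471 mice received the CLA diet with the same injections. Groups held 6 mice, and the sources used here do not give whether a library came from 1 mouse or from pooled RNA, and there is no replicate error. Livers were taken at zeitgeber time 8. For sequencing the methods text describes the Vehicle and CLA groups only, so both groups given GW6471 were taken from the sample labels.

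Amino acids cross the plasma membrane through several solute carrier (SLC) families. Several SLC7 light chains, among them those encoded by Slc7a5 and Slc7a11, reach the membrane as partners of the heavy chain encoded by Slc3a2, whereas the cationic amino acid carrier encoded by Slc7a1 and the carriers of the SLC1, SLC38 and SLC43 families work without it. SLC38 and SLC1 carriers bring in glutamine and other small neutral amino acids, and exchangers such as that encoded by Slc7a5 trade these for leucine and other large neutral ones. Slc43a1 and Slc43a2 encode facilitative carriers of large neutral amino acids, while their relative Slc43a3 encodes an equilibrative carrier of purine bases such as adenine. Slc7a11 encodes the cystine/glutamate exchanger, which supplies cysteine for glutathione and is a known target of the transcription factors ATF4 and NRF2.

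The labelled tissue was checked against its markers before the transporters were read. Of 15 hepatocyte markers, 12 were listed and 8 of these had a mean under 1 FPKM, among them Ttr at 0.030, Cps1 at 0.018 and Cyp2e1 at 0.065 FPKM, while Alb stood at 922 and Trf at 277 FPKM. Pecam1 and the other 3 listed endothelial markers and all 5 listed stellate cell or fibroblast markers were under 1 FPKM, and Ptprc, the one lymphocyte marker listed, was at 0.0075 FPKM. Of the squamous epithelial markers Sprr1a had 19942 FPKM, the highest level in the table, whereas Krt5 had 3.25 FPKM and Krt14 and Trp63 were under 0.1 FPKM. Several defining transcripts of hepatocytes were thus near 0 in the libraries labelled as liver. The depth was estimated from the steps between low FPKM values at 18.8 M to 19.3 M reads per library, and intervals given below are 95% counting intervals from these estimates, which cover counting error only. In bulk tissue, fewer cells of a type and less RNA per cell cannot be told apart.

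The promoter of Slc7a11 is shown because this gene was higher by 1.5-fold or more with either treatment alone than in Vehicle and because the promoter holds a pair of matches to a known response element. The 250 bases before its start, from RefSeq (GRCm38.p6, chr3:50443614-50443863, minus strand), are printed 5′ to 3′, and capitals mark matches to the amino acid response element to which ATF4 binds, searched as TGATGNAAN on both strands.

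Slc7a11: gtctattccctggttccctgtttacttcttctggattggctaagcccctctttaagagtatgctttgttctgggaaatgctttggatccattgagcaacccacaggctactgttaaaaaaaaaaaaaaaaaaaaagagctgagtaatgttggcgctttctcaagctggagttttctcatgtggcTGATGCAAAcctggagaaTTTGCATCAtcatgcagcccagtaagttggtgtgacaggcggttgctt

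The matches lay 66 to 58 and 48 to 40 bases before the start, the former in the direction of the gene and the latter on the opposite strand, and they did not overlap. Among 32851 promoter windows of this length, 1129 (3.44%) held at least 1 match and 13 (0.0396%) held at least 2. The RefSeq table held windows for 6 of the 10 genes, with 8 starts in all, and the windows of Slc43a1, Slc43a2, Slc7a1, Slc38a2 and Slc3a2 held no match. The antioxidant response element to which NRF2 binds, searched as TGACNNNGC on both strands, had no match in this window of Slc7a11. It had 1 match each in the windows of Slc43a1, Slc38a2 and one start of Slc7a1, and 10.2% of all windows held at least 1. A match describes the letters only. Slc43a3, Slc7a5, Slc1a5 and Slc38a1 had no entry.

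The 10 genes covered a wide range of levels, in an order that was the same in every library. Slc38a2, which encodes a sodium-coupled carrier of glutamine and alanine (SNAT2), was the highest, with 298.98 FPKM in Vehicle, 266.69 with CLA, 334.60 with GW6471 and 295.88 with both. Its mean lay above 98.6% of all listed genes. Slc3a2, the shared heavy chain, followed with 198.80, 179.89, 217.98 and 194.35 FPKM in the same order of libraries. In both genes the library labelled GW6471 was the highest and the library labelled CLA the lowest.

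Slc1a5, which encodes the neutral amino acid exchanger ASCT2, had 85.43 FPKM in Vehicle, 101.38 with CLA, 99.76 with GW6471 and 80.79 with both. For this gene the libraries with a single treatment stood above both others. Slc7a1, the carrier of arginine and lysine, had 75.85, 63.79, 87.47 and 74.99 FPKM. Slc7a5, the light chain of the large neutral amino acid exchanger LAT1, had 68.96, 58.99, 74.12 and 61.55 FPKM. The ranges of Slc1a5 and Slc7a1 over the libraries overlapped, as did those of Slc7a1 and Slc7a5, although within each library the order held.

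Slc7a11 had 28.08 FPKM in Vehicle, 44.62 with CLA, 52.65 with GW6471 and 24.51 with both, and Slc43a3 had 21.15, 7.77, 12.36 and 22.69 FPKM. These genes showed opposite profiles, Slc7a11 being higher and Slc43a3 lower with either treatment alone than in Vehicle. For both genes CLA+GW6471 stood nearer to Vehicle than either treatment alone did. Slc7a11 was still lower in CLA+GW6471 than in Vehicle, with a log2 ratio of FPKM + 0.1 of -0.20 (counting interval -0.26 to -0.14). For Slc43a3 this ratio was 0.10, and its interval (-0.022 to 0.22) included 0. The highest level was 2.15 times the lowest for Slc7a11 and 2.92 times for Slc43a3, which was more than in 96.3% and 98.9% of the 10355 genes with a mean of at least 1 FPKM. The other 5 genes above that level had a quotient of 1.21 to 1.37, which was more than in 35.5% to 65.4% of these genes.

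Slc38a1, which encodes the glutamine carrier SNAT1, was the nearest gene under the limit of 1 FPKM, with a mean of 0.805 FPKM and values of 0.81, 0.82, 0.70 and 0.89 FPKM. Slc43a2 had 0.16 FPKM in Vehicle and 0.17 in each other library. Slc43a1 had 0.04 FPKM in Vehicle, 0.02 with CLA, 0.12 with GW6471 and 0.06 with both. The limit that 3 reads set for Slc43a1 is 0.051 to 0.052 FPKM, so that Vehicle and CLA were under it and no difference between them is given. GW6471 stood at 3 times Vehicle, and the log2 counting interval of this quotient, -0.60 to 5.09, included 0. For Slc38a1 and Slc43a2 the counting intervals of all 4 comparisons below included 0, so differences were not detectable at this depth.

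**Figure D1:**
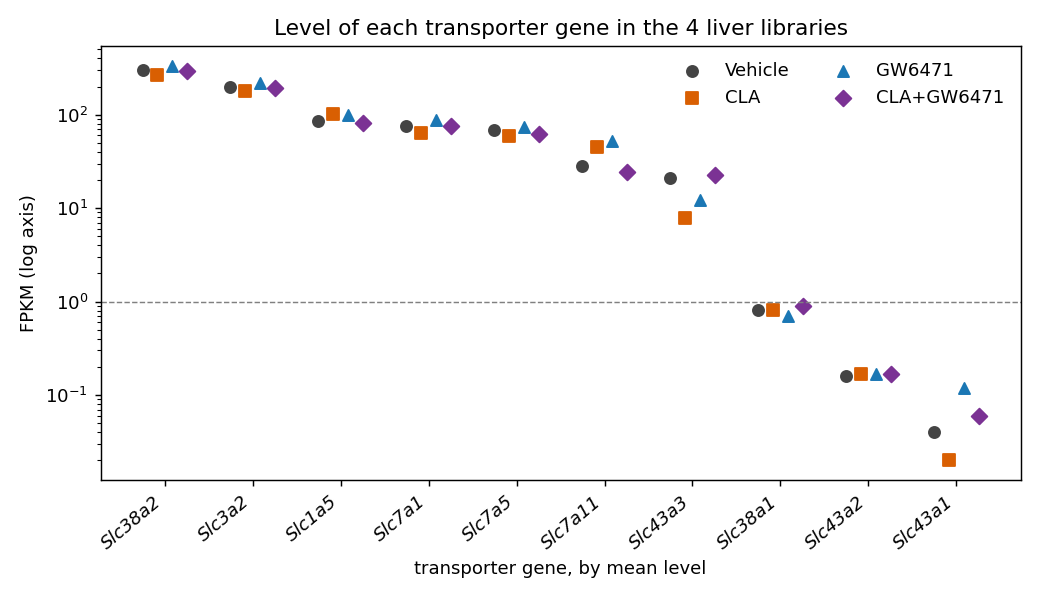
FPKM of each transporter gene on a log axis, with 1 point per library and genes ordered by their mean. The dashed line marks 1 FPKM, under which Slc38a1, Slc43a2 and Slc43a1 lie, and the points spread most for Slc7a11 and Slc43a3 among the 7 genes above it.

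Relatives by sequence and by position differed in level. Slc43a3 lies on chromosome 2 (mm9, chr2:84776736-84798666, plus strand, GENCODE vM1), 73.0 kb from Slc43a1 (chr2:84679007-84703751, plus strand). The protein translated from the longest coding sequence of Slc43a3 has 502 residues and shared 30.1% of aligned residues with Slc43a1 and 29.9% with Slc43a2, which shared 60.4% with each other. Both amino acid carriers of the family were below 0.2 FPKM in every library, whereas Slc43a3 was at 7.77 FPKM or above. Slc38a1 and Slc38a2, neighbours on chromosome 15 with 44.5 kb between them, shared 53.1% of aligned residues, and Slc38a2 stood above 260 FPKM while Slc38a1 stayed below 0.9 FPKM. Slc7a11 and Slc7a5 shared 45.7%, and Slc7a11 lies on chromosome 3 (mm9, chr3:50168858-50247535, minus strand).

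CLA was compared with Vehicle to see how the transporters stood with the dietary fatty acid. Differences are log2 ratios after adding 0.1 to each FPKM, which makes differences of low genes look smaller, and a gene was counted as higher or lower from 1.5-fold. Slc43a3 was lower in CLA by 2.70-fold, with a log2 ratio of -1.43 (counting interval -1.62 to -1.27) from about 379 and 1030 estimated reads. Slc7a11 was higher in CLA by 1.59-fold, with a log2 ratio of 0.67 (0.62 to 0.72). Of the 7 genes above 1 FPKM, 1 was thus higher and 1 lower, against 7.30% and 4.95% of all genes with a mean of at least 1 FPKM. Only 0.087% of those genes had a lower ratio than Slc43a3.

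The other 5 genes lay between -0.25 and 0.25 in this comparison. Slc1a5 had a log2 ratio of 0.25 (0.19 to 0.31), whereas Slc7a1 had -0.25 (-0.29 to -0.21), Slc7a5 -0.22 (-0.29 to -0.16), Slc38a2 -0.16 (-0.19 to -0.14) and Slc3a2 -0.14 (-0.18 to -0.10). Depth is not the limit for these genes, but the difference between animals is unknown. The median over the 7 genes was -0.16, against -0.0071 over all 10355 genes.

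GW6471 was compared with Vehicle to see how the antagonist alone stood on the control diet. Slc7a11 was higher by 1.87-fold, with a log2 ratio of 0.90 (0.86 to 0.96), and Slc43a3 was lower by 1.71-fold, with a log2 ratio of -0.77 (-0.92 to -0.63). These were again the genes past 1.5-fold, 1 in each direction, against 3.28% of all genes higher and 2.10% lower. With the libraries scaled to a common FPKM sum, 401 genes were higher and 162 lower in place of 340 and 217. Slc1a5 (0.22), Slc7a1 (0.21), Slc38a2 (0.16), Slc3a2 (0.13) and Slc7a5 (0.10) were all above 0 on the log2 scale. The median over the 7 genes was 0.16, against -0.0041 over all genes. This comparison shares the Vehicle library with the previous one.

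CLA+GW6471 was compared with CLA to see how the transporters stood when the antagonist was added to the CLA diet. In CLA+GW6471 against CLA, Slc43a3 was higher by 2.90-fold, with a log2 ratio of 1.53 (1.38 to 1.72), and Slc7a11 was lower by 1.82-fold, with a log2 ratio of -0.86 (-0.92 to -0.81). The shares of all genes past 1.5-fold were 6.84% higher and 9.15% lower. Over the 4 comparisons the value just inside the 1.5-fold limit was that of Slc7a11 in CLA against Vehicle (1.59-fold), and just outside was that of Slc1a5 in CLA+GW6471 against CLA (lower by 1.25-fold). Slc7a1 had a log2 ratio of 0.23, Slc38a2 0.15 and Slc3a2 0.11, while the interval of Slc7a5 (-0.0017 to 0.12) included 0. The median over the 7 genes was 0.11, against 0.0090 over all genes.

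CLA+GW6471 was also compared with GW6471, which gives the CLA ratio in the presence of the antagonist. Slc7a11 was lower by 2.14-fold, with a log2 ratio of -1.10 (-1.16 to -1.05), and Slc43a3 was higher by 1.83-fold, with a log2 ratio of 0.87 (0.73 to 1.02). Among all genes 2.81% were higher and 3.88% lower by 1.5-fold. Scaled to a common FPKM sum, 199 genes were higher and 548 lower, in place of 291 and 402. The other 5 genes were below 0, from -0.30 for Slc1a5 to -0.17 for Slc3a2, and the median over the 7 was -0.22, against 0.0041 over all genes.

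**Figure D2:**
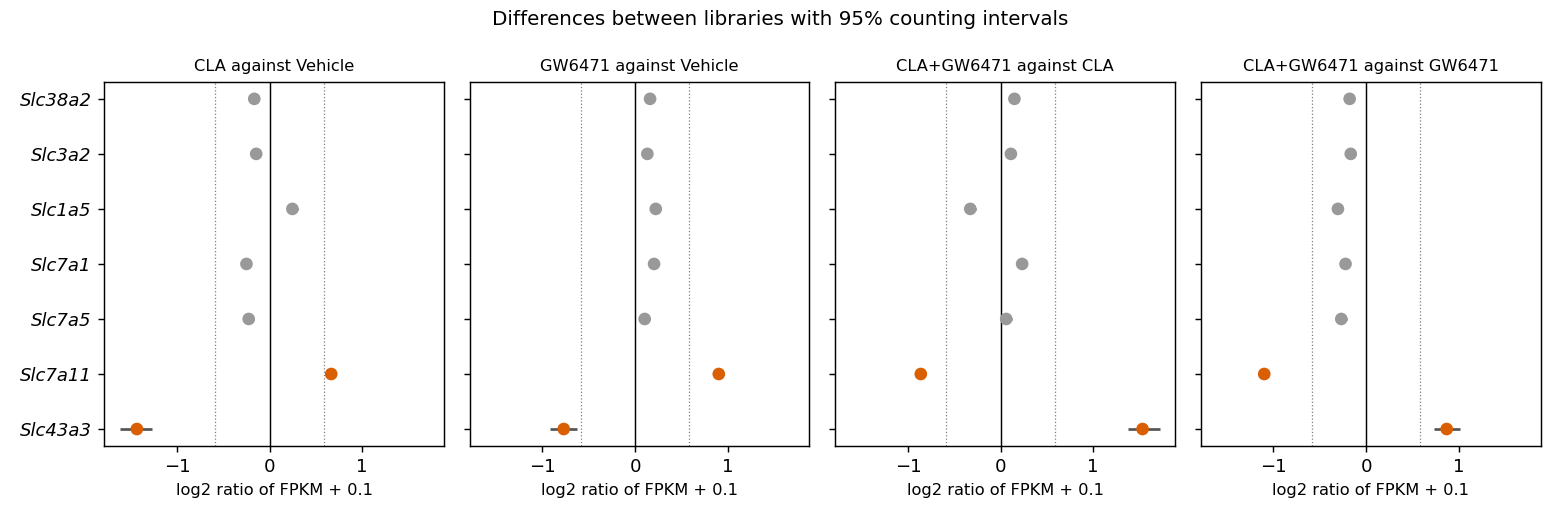
Log2 ratios of FPKM + 0.1 for the 7 transporter genes above 1 FPKM in the 4 comparisons, with 95% counting intervals as bars (most are narrower than the point) and dotted lines at 1.5-fold. Orange points are past 1.5-fold, which in every comparison are Slc7a11 and Slc43a3, on opposite sides of 0.

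The CLA ratios without and with GW6471 share no library and can be set side by side. For Slc43a3 they were -1.43 and 0.87, for Slc7a11 0.67 and -1.10, and for Slc1a5 0.25 and -0.30, so that these 3 genes changed sign. Across all 10355 genes 73.0% had opposite signs in these ratios. Slc38a2 (-0.16 and -0.18), Slc3a2 (-0.14 and -0.17), Slc7a1 (-0.25 and -0.22) and Slc7a5 (-0.22 and -0.27) were below 0 in both, as were 13.5% of all genes, and for each of these 4 genes the ratios differed by less than 0.05 on the log2 scale. Without replicates it is unknown whether such small differences exceed those between mice.

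**Figure D3:**
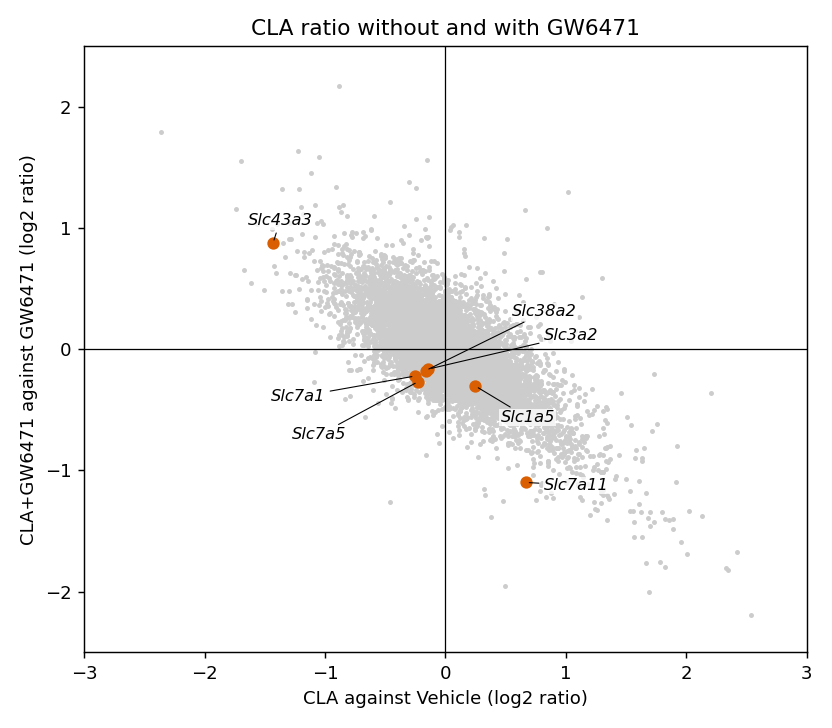
Log2 ratio of CLA to Vehicle (horizontal) against that of CLA+GW6471 to GW6471 (vertical) for the 10355 genes with a mean of at least 1 FPKM (grey, 2 of them beyond the axes) and the 7 transporter genes (orange). Slc43a3, Slc7a11 and Slc1a5 lie in quadrants of opposite sign, and Slc38a2, Slc3a2, Slc7a1 and Slc7a5 lie together below 0 on both axes.

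Slc3a2 was next set against its light chains. The SLC7 light chains that pair with Slc3a2 and were listed were Slc7a5, Slc7a6, Slc7a7, Slc7a8 and Slc7a11. Their sum was 138.09 FPKM in Vehicle, 144.02 with CLA, 167.96 with GW6471 and 128.34 with both, and Slc3a2 was 1.44, 1.25, 1.30 and 1.51 times this sum. Slc7a11 made up 20.3% of the light chain FPKM in Vehicle and 19.1% in CLA+GW6471, against 31.0% in CLA and 31.3% in GW6471. The quotient of Slc7a11 to Slc7a5 was 0.41 in Vehicle, 0.76 with CLA, 0.71 with GW6471 and 0.40 with both. Slc7a6 (22.19 to 24.56 FPKM) and Slc7a7 (16.48 to 18.22 FPKM) varied little, and Slc7a8 was at 0.05 FPKM or below.

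**Figure D4:**
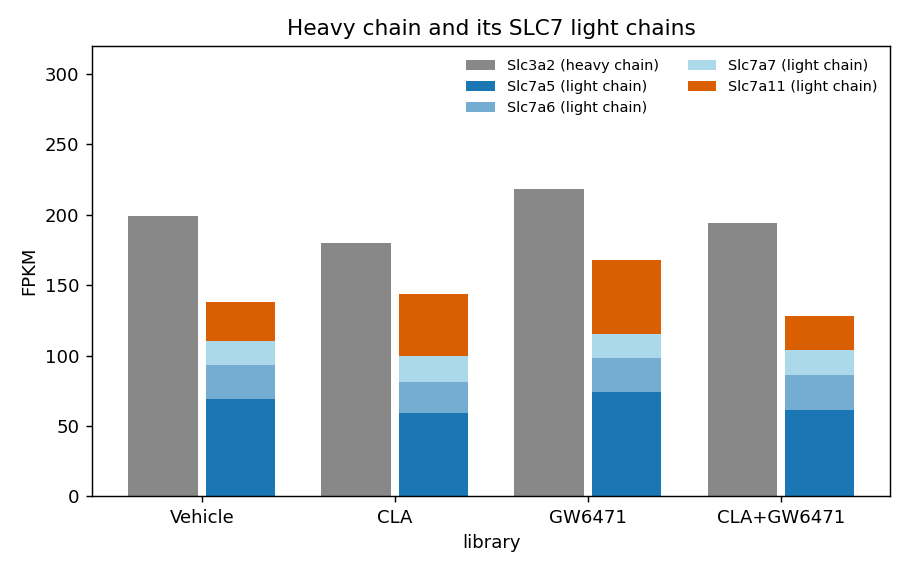
FPKM of the heavy chain Slc3a2 (grey) and, stacked, of 4 of its light chains in each library. The orange part, Slc7a11, is 44.62 and 52.65 FPKM in CLA and GW6471 and 28.08 and 24.51 FPKM in Vehicle and CLA+GW6471.

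The genes with the most similar profiles were sought among the 8197 genes with a mean of at least 5 FPKM, by the distance between log2 values centred on each gene's mean over the 4 libraries. Nearest to Slc43a3 were Cnppd1 at a distance of 0.11, Il23a, a cytokine subunit, at 0.13, the clock repressor Cry1 at 0.18, 1110059M19Rik at 0.19 and Slc25a25, a mitochondrial carrier of ATP-Mg and phosphate, at 0.22. Cry1, for example, had 10.71 FPKM in Vehicle, 4.63 with CLA, 6.71 with GW6471 and 13.05 with both. Nearest to Slc7a11 were Nt5e, an ecto-enzyme that makes adenosine, at 0.21, Phka2 at 0.23, the fatty acid desaturase Scd2 at 0.25, Cyp51 of cholesterol synthesis at 0.26 and Dmkn at 0.27. Scd2 had 201.80, 385.81, 366.29 and 197.40 FPKM. The distances rest on 4 values per gene. Between the transporters themselves, Slc1a5 was the nearest to Slc7a11, at 0.64, and Slc43a3 the farthest from it, at 2.07.

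Of 43 other amino acid transporters on the list 32 were listed and 18 had a mean of at least 1 FPKM. In CLA against Vehicle 2 of the 18 were higher and 4 lower by 1.5-fold, against 7.30% and 4.95% of all genes, and the median was -0.062. In GW6471 against Vehicle 3 were higher and 1 lower, against 3.28% and 2.10% of all genes, and the median was 0.011. Slc38a3, a glutamine carrier of hepatocytes (SNAT3), had 0.55 FPKM in Vehicle, 1.84 with CLA, 1.43 with GW6471 and 0.72 with both, a log2 ratio of 1.58 in CLA against Vehicle. Slc16a10, an aromatic amino acid carrier, had 9.30, 19.47, 15.07 and 9.30 FPKM. Slc7a2, a cationic amino acid carrier, had 1.69, 0.71, 0.99 and 1.51 FPKM. Slc38a3 and Slc16a10, like Slc7a11, were higher with either treatment alone than in Vehicle, and Slc7a2, like Slc43a3, was lower. Slc38a3 and Slc7a2 were each under 1 FPKM in the libraries in which they were low and passed the limit on the mean through the others.

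Slc43a3 carries purine bases, and of 16 nucleoside and nucleobase carriers and purine salvage enzymes 15 were listed and 10 had a mean of at least 1 FPKM. In CLA against Vehicle 3 of these 10 were higher and 0 lower by 1.5-fold, against 7.30% and 4.95% of all genes, and the median log2 ratio was 0.48, against -0.0071 over all genes. Xdh, which oxidises purine bases to uric acid, had 3.20 FPKM in Vehicle, 6.02 with CLA, 5.07 with GW6471 and 2.49 with both. Nt5e had 4.64, 8.43, 8.08 and 4.17 FPKM, and the lysosomal nucleoside carrier Slc29a3 had 3.10, 4.73, 4.18 and 3.45 FPKM. Of the 10, 2 were higher and 0 lower in GW6471 against Vehicle, against 3.28% and 2.10% of all genes, and the median was 0.17. Nt5e and Xdh were high in the libraries in which Slc43a3 was low, whereas the plasma membrane nucleoside carrier Slc29a1, named after its values were seen, was low in them (68.95, 51.03, 57.79 and 71.20 FPKM). All 13 genes of purine synthesis were above 1 FPKM, of which 1 was higher in CLA against Vehicle and 0 lower, a share of higher genes near that of all genes. In GW6471 against Vehicle 0 were past 1.5-fold in either direction, against 3.28% and 2.10% of all genes, with a median of -0.043. Adssl1 had 1.65 FPKM in Vehicle and 2.91 in CLA, Paics 58.10 and 80.97, and Prps1 22.00 and 16.13. In GW6471 Prps2 had a log2 ratio to Vehicle of 0.30, Adssl1 of 0.28 and Adsl of -0.26.

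Slc7a11 is a known target of ATF4 in amino acid stress and of NRF2 in oxidative stress, and the other targets of each were listed. The ATF4 list also held Atf4 itself, and 30 of its genes were above 1 FPKM. Of these 30, 1 was higher and 4 were lower by 1.5-fold in CLA against Vehicle, against 7.30% and 4.95% of all genes. Their median was -0.13. In GW6471 against Vehicle 1 was higher and 1 lower, near the 3.28% and 2.10% of all genes. In CLA+GW6471 against GW6471 1 was higher and 4 were lower, against 2.81% and 3.88% of all genes. The median there was -0.14, against 0.0041 over all genes. Atf4 had 482.25 FPKM in Vehicle, 506.05 with CLA, 521.71 with GW6471 and 488.47 with both. Nupr1, a stress-induced chromatin protein, had 249.94 FPKM in Vehicle, 110.73 with CLA, 151.27 with GW6471 and 255.93 with both. Atf3 had 89.81, 42.33, 89.81 and 88.37 FPKM, and Ddit4, an inhibitor of mTORC1, had 46.91, 79.67, 75.60 and 44.79 FPKM. Chac1, which degrades glutathione, had 49.29, 68.57, 69.58 and 42.33 FPKM, so that Ddit4 and Chac1 were high in the same libraries as Slc7a11 and Nupr1 was low in them.

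Of 16 NRF2 targets above 1 FPKM, 6 were higher and 1 was lower by 1.5-fold in CLA against Vehicle, against 7.30% and 4.95% of all genes, with a median log2 ratio of 0.43 (-0.0071 over all genes). In GW6471 against Vehicle 4 were higher and 0 lower, against 3.28% and 2.10%, with a median of 0.38 (-0.0041 over all genes). In CLA+GW6471 against GW6471 1 was higher and 2 were lower, against 2.81% and 3.88%, with a median of -0.33 (0.0041 over all genes). Gclc, the catalytic subunit of the first enzyme of glutathione synthesis, had 11.85 FPKM in Vehicle, 22.76 with CLA, 19.67 with GW6471 and 11.13 with both. Nqo1, a quinone reductase, had 0.72, 2.67, 1.53 and 0.96 FPKM, and Pgd of the pentose phosphate pathway had 27.49, 54.56, 37.97 and 27.11 FPKM. Hmox1, the haem oxygenase, had 69.62, 94.27, 109.64 and 91.40 FPKM. Gclc and Pgd, like Slc7a11, were highest in the libraries with a single treatment. So was Nqo1, which was under 1 FPKM in the other libraries and passed the limit on the mean through these. Osgin1, the target counted as lower in CLA against Vehicle, went the other way. It had 105.65 FPKM in Vehicle, 56.74 with CLA, 73.51 with GW6471 and 120.15 with both. With a 2-fold limit 1 NRF2 target, which was Nqo1, was higher in CLA against Vehicle, and 0 were higher in GW6471 against Vehicle.

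Of 25 genes of amino acid sensing by mTORC1 above 1 FPKM, 1 was higher and 1 lower by 1.5-fold in CLA against Vehicle, no more than the 7.30% and 4.95% of all genes, and the median was -0.012. In GW6471 against Vehicle 1 was higher and 0 lower, against 3.28% and 2.10% of all genes. The genes of this list with the largest ratios are given for their values only. Sesn1, whose product restrains mTORC1, had 1.69 FPKM in Vehicle, 4.51 with CLA, 2.66 with GW6471 and 1.49 with both. Flcn, part of a complex that acts on Rag GTPases, had 19.42, 11.49, 13.38 and 19.33 FPKM. Its partner Fnip1 had 10.55, 7.20, 9.01 and 9.40 FPKM, and Nprl3 had 19.86, 15.10, 14.22 and 18.09 FPKM.

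**Figure D5:**
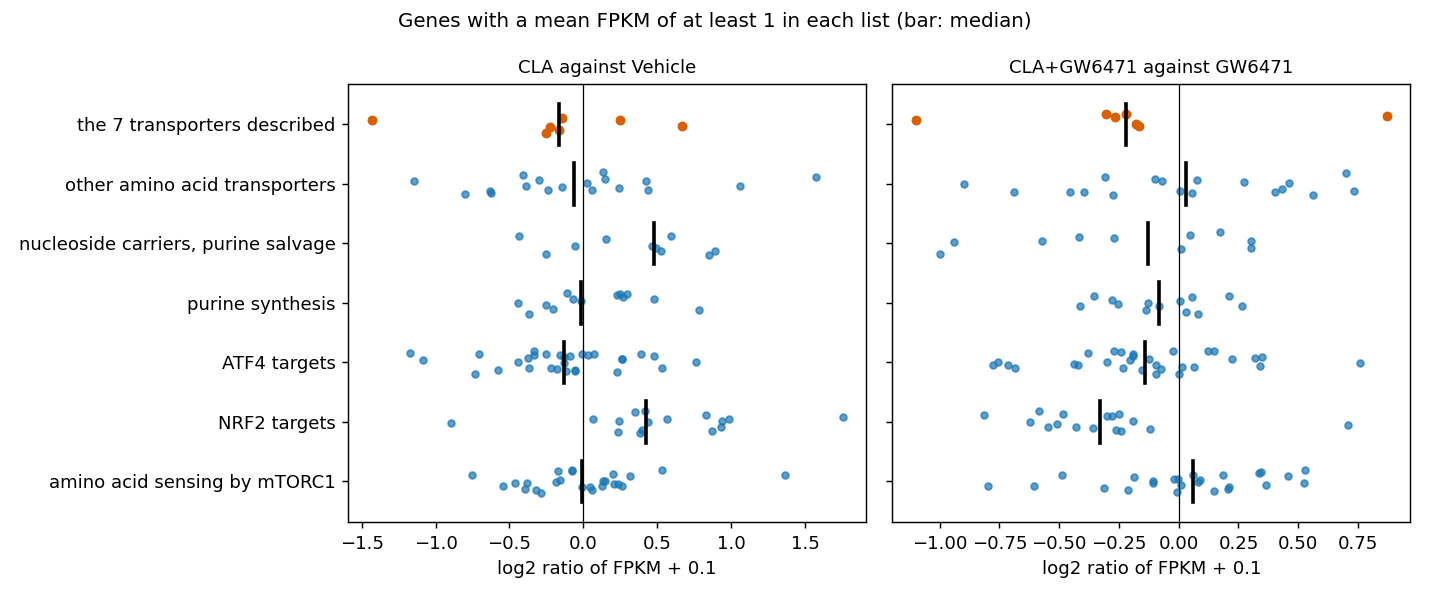
Log2 ratios of the 7 transporter genes (orange) and of the genes of each list with a mean of at least 1 FPKM (blue), without GW6471 (left) and with it (right), with black bars at the medians and vertical scatter for display only. The median of the NRF2 targets is 0.43 on the left and -0.33 on the right, while that of the 7 transporters is -0.16 and -0.22.

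Some markers of the tissue moved with these genes, while others did not. The summed level of the 12 listed hepatocyte markers was 965 FPKM in Vehicle, 1840 with CLA, 1495 with GW6471 and 899 with both. This sum came mostly from Alb, Trf and Fgb, and 8 of the 12 had a mean under 1 FPKM. It was higher in the libraries in which Slc7a11 was higher and Slc43a3 lower. The listed cholangiocyte markers summed to 85.6 FPKM in Vehicle, 66.9 with CLA, 75.1 with GW6471 and 84.5 with both. Of these, Sox9 was lower in the libraries in which Slc43a3 was lower (54.74, 34.72, 48.67 and 57.05 FPKM), whereas Krt7 (23.47, 23.14, 18.43 and 18.84 FPKM) and Epcam (7.09, 8.95, 7.93 and 8.47 FPKM) did not follow it. The listed Kupffer cell markers, which were Cd68 but for Cd5l near 0, summed to 23.4 to 35.6 FPKM, and the squamous epithelial markers to 15815 to 26119 FPKM, nearly all from Sprr1a, which was lowest in CLA, while Krt5 was highest there (2.99 FPKM in Vehicle, 4.29 with CLA, 2.79 with GW6471 and 2.94 with both). Endothelial markers summed to 0.51 to 0.94 FPKM, stellate cell or fibroblast markers to 0.81 to 1.21 FPKM, and Ptprc was at 0.01 FPKM or below. The part of these cells in the transporter differences was not tested.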

How the data were processed

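RNA labelled as liver was sequenced in 4 libraries, 1 per condition. The authors used BWA and Bowtie for mapping (mm9) and Cufflinks for quantification, versions not given in the sources used here, and deposited FPKM with 2 decimals. The table names no unit, which was taken from the paper's supplement, and its columns were matched to the sample labels. The genes and lists were chosen with earlier results of these data known. Log2 ratios used FPKM + 0.1, with a gene counted from a mean of 1 FPKM over the 4 libraries and a 1.5-fold difference. No test was made, since 1 library per condition has no replicate error.

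Depth was estimated from the smallest FPKM steps of genes under 1000 nt with 1 coding transcript in GENCODE vM1 (mm9), and intervals are exact Clopper-Pearson (95%) on reads estimated with the longest coding transcript. They are approximate. Named genes were the 10 transporters, the 3 genes per list with the largest ratio in CLA and in GW6471 against Vehicle, and the 5 nearest profiles to Slc43a3 and to Slc7a11. Cell type markers and the light chains Slc7a6, Slc7a7 and Slc7a8 were named as well. Slc29a1, Osgin1 and Atf4 were outside this rule and were named after their values were seen. A count of genes described for a list has no test behind it. Proteins were translated from GENCODE transcripts and aligned globally (BLOSUM62, gap penalties 11 and 1). Python 3.11.15, numpy 2.4.6, pandas 2.3.3, scipy 1.17.1, Biopython 1.88 and matplotlib 3.10.9 were used. The steps were tested on simulated libraries. Alternatives were pseudocounts of 0.01 and 1, a mean of 5 FPKM or no filter, scaling by median of ratios or to an equal FPKM sum, and a 2-fold limit.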

Additional observations from a re-analysis of the deposited data

Results flagged for a closer look

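For 3 transporter genes the CLA ratio had opposite signs without and with GW6471, beyond the counting interval in both. The ratio with GW6471 minus that without it was 2.30 on the log2 scale for Slc43a3, -1.77 for Slc7a11 and -0.55 for Slc1a5. With 1 library per condition the difference was not tested, and 73.0% of the 10355 genes had opposite signs in these ratios.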

How the results depend on the processing

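Of 80 counts and medians of the transporters under an alternative, 73 stayed within 1.5 times the count or 0.05 (log2) of the median. With a 2-fold limit, 0 of the 7 genes were higher in CLA against Vehicle, 0 higher and 0 lower in GW6471 against Vehicle, 0 lower in CLA+GW6471 against CLA and 0 higher in CLA+GW6471 against GW6471. Slc43a3 stayed past 2-fold in both comparisons with CLA alone, and Slc7a11 in CLA+GW6471 against GW6471. Without a filter on low values 2 genes were higher in GW6471 against Vehicle, the added one being Slc43a1. Its Vehicle value was under the limit of 3 reads, and the counting interval of its ratio included 0. Scaled to a common FPKM sum, the median in CLA+GW6471 against GW6471 was -0.29. Of 160 ratios of single transporters, 150 stayed within their counting interval. The sign changed for Slc38a1 in CLA against Vehicle, from 0.016 to -0.011 with a common FPKM sum, and for no other. Of 480 counts and medians of the other lists, 397 stayed within the same limits. With a 2-fold limit the higher NRF2 targets fell from 6 to 1 (Nqo1) in CLA against Vehicle and from 4 to 0 in GW6471 against Vehicle. The median of the other amino acid transporters in GW6471 against Vehicle, 0.011, was -0.019 from a mean of 5 FPKM.

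Counts over all genes moved more. In CLA against Vehicle 756 genes were higher and 513 lower, against 550 and 332 with a pseudocount of 1, 448 and 323 from a mean of 5 FPKM, 1373 and 1031 without a filter and 185 and 77 at 2-fold. In GW6471 against Vehicle the 340 and 217 became 201 and 106, 170 and 97, 806 and 748, and 58 and 32 under the same settings. In CLA+GW6471 against CLA the 708 and 948 became 493 and 747, 474 and 596, 1264 and 1632, and 131 and 276. In CLA+GW6471 against GW6471 the 291 and 402 became 174 and 253, 153 and 205, 840 and 889, and 37 and 83. No paired analysis was possible because each condition has 1 library. The lack of replicates, the estimated depth and 3 genes under 1 FPKM limit these values.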
